A study of Mus musculus with 2 samples.

Results

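The immediate early and AP-1 genes Fos, Fosb, Fosl1, Fosl2, Jun, Junb, Jund, Egr1, Atf3 and Ier2 were followed on arrays of epithelial cells from the mouse submandibular gland. These 10 genes were chosen by symbol out of 36870 gene names on the array, and all 17 non-control probes that carry the symbols were taken, out of 56605. Cells positive for EpCAM, a surface protein of epithelia, were collected with magnetic beads after the glands had been minced and digested with collagenase, hyaluronidase and DNase. The young sample came from female C57BL/6 mice aged 9 weeks and the aged sample from female C57BL/6 mice aged 24 months (C57BL/6N in the methods), the design text gives N as 1 each, and the labels name no treatment. According to the methods, young and aged mice were obtained from different sources, so that age and source cannot be told apart. RNA labelled with the dye Cy3 was hybridized to 1 array per age. No difference below has a replicate check or a p-value.

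AP-1 is a dimeric transcription factor built from Fos and Jun proteins, which pair through leucine zippers and bind a short DNA motif. Most of its genes are immediate early genes, which are transcribed within minutes of a stimulus, without new protein synthesis, when kinases of the MAPK cascades activate factors already bound at their promoters. In glandular tissue they respond to growth factors, secretagogues and injury, and they are also known to be induced while solid tissue is digested into single cells. No sample of undigested gland was analysed here, so the part of the digestion in the levels below was not tested.

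Since each value is the brightness of one oligonucleotide probe, the sequences that were read out are shown. For 6 genes with the signals on which the comparison turns, the first 30 of the 60 bases of the probe are given, in lower case and as written in the scanner files.
Fos A_55_P2910184: cctgaggtctttcgacatgtggaaagtgaa
Fosb A_55_P2113051: actgccgaccacaattcattgactccatag
Jun A_55_P2158990: atgctaacgcagcagttgcaaacgttttga
Junb A_51_P159194: ttcgtgtctaaagtctattttaagatgtgt
Jund A_55_P2892246: tgcgtgttgagtgtgtgtttccttgtgttg
Atf3 A_52_P452689: cacagcagctttgtccttggctacaaactg
The files place them, on NCBI37 (mm9), at chromosome 12, 86818118 to 86818177, plus strand, for Fos, at chromosome 7, 19888168 to 19888227, minus strand, for Fosb and at chromosome 4, 94716928 to 94716987, minus strand, for Jun. The Junb probe lies at chromosome 8, 87500843 to 87500902, minus strand, the Jund probe at chromosome 8, 73224302 to 73224361, plus strand, and the Atf3 probe at chromosome 1, 192994547 to 192994606, minus strand. No annotation of that build was used, so exon and UTR are not named. The Junb and Ier2 probes lie 315.6 kb apart on chromosome 8. Another pair of probes, each upstream of the brightest probe of its gene and with at least 1 open reading frame over all 60 bases, is probably coding, though no annotation was used to settle it, and is shown whole, because one read Junb at another place and the other was the only Fosl2 probe not above background.
Junb A_55_P2011106: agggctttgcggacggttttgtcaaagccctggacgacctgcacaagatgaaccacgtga
Fosl2 A_51_P507242: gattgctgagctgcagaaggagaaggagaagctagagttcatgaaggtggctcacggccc

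The brightest members lay at the top of both arrays, and relative to the 75th percentile of each array Fos, Jun, Junb and Atf3 differed between the ages by -0.0038 to 0.036 on the log2 scale, with values on both sides of 0 under other scalings. Of the other bright members, Jund differed by 0.22, Ier2 by -0.30, Egr1 by -0.43 and Fosb by -0.51. Well above background were 15 of the 17 probes at both ages and 2 at neither, namely the upstream probe of Fosl2 and a Junb probe 4149 bases downstream of the Junb probe shown first. All 10 genes were therefore measured on both arrays. The signal percentile, the share of the 56597 probes on the array with a lower signal, had a median over the 10 genes of 99.2 at 9 weeks and 98.7 at 24 months. Both arrays placed 8 of the genes at or above percentile 90 and 4 (Fos, Jun, Junb and Jund) at or above percentile 99. Probes differ in how well they bind, so a percentile describes the signal of a probe and is not an order of transcript levels. No gene was at least 2-fold higher or lower on the aged array, the threshold named in the methods. Over all 18693 genes measured on both arrays, 4.55% passed 2-fold in either direction, and of the 4729 genes at or above percentile 90 on both arrays 1.06% did, as did 1.08% of the 464 at or above percentile 99, so a count of 0 among 10 is near the background.

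**Figure D1:**
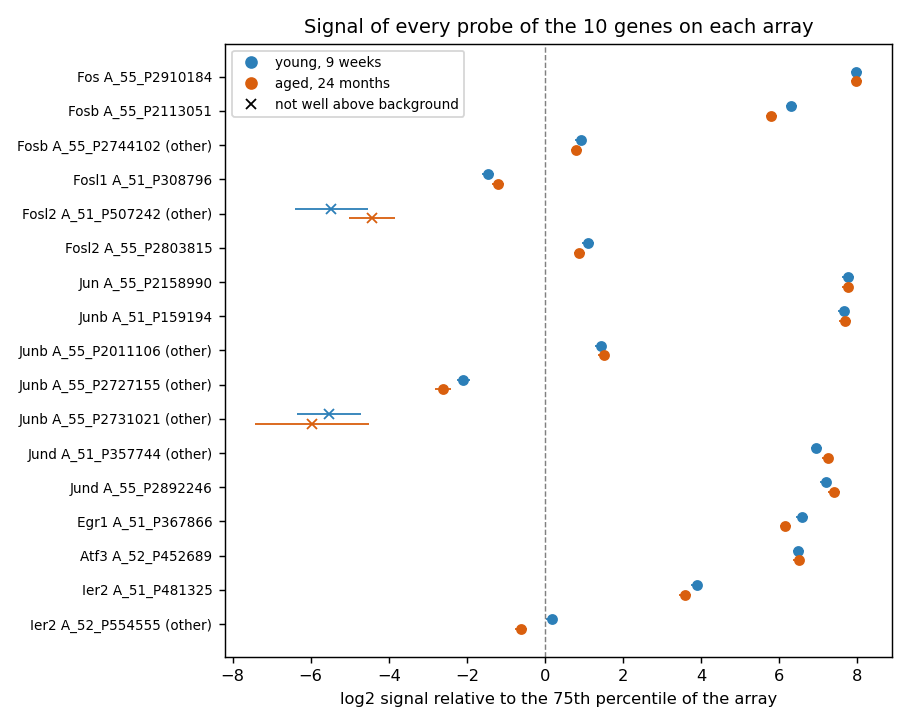
Log2 signal of each of the 17 probes over the array's 75th percentile (x axis), young in blue and aged in orange; bars are the error that the scanner software gives the signal, circles are well above background and crosses are not. The brightest probes of Fos, Jun, Junb and Jund sit between 7.19 and 7.98 on both arrays, while the upstream and downstream Junb probes and the other Fosb and Ier2 probes are dimmer.

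Among the Fos genes, whose products need a Jun partner to bind DNA, Fos had the highest signal. The Fos probe gave 64889.6 at 9 weeks and 50074 at 24 months, in units of scanner brightness. Each array was scaled to its 75th percentile, 256 at 9 weeks and 198 at 24 months, and the log2 level of Fos relative to it was 7.98 on both. The log2 difference, aged minus young, was -0.0018, with an error of 0.20 combined from the errors that the scanner software gives both signals, which are 10% to 14.3% of the signals of the 15 measured probes. Counted from the brightest of 56597 probes, Fos had rank 125 at 9 weeks and 199 at 24 months.

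Fosb, which is induced like Fos but lasts longer as a shorter splice form, had the lowest difference of the 10 genes by the brightest probe of each. As a mean over the probes of a gene, Fosb was at -0.31, above Ier2 at -0.54. Its brightest probe gave 20422 at 9 weeks and 11067 at 24 months, a log2 difference of -0.51 ± 0.20 (software error), or 1.43-fold lower. A dimmer Fosb probe gave 484 and 346 and a log2 difference of -0.11 ± 0.20. The probes thus lay on the same side of 0 but differed in size. Of all genes measured on both arrays, 9.16% had a lower difference than the brightest Fosb probe.

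Fosl1 and Fosl2 encode FRA-1 and FRA-2, Fos relatives that lack the strong activation domain of Fos. Fosl1 was the dimmest member, with 93.1 at 9 weeks and 86.7 at 24 months, and its log2 difference of 0.27 ± 0.22 was the highest of the 10 genes. Fosl2 gave 552 at 9 weeks and 366 at 24 months, a log2 difference of -0.22 ± 0.20. Neither difference reached 2 times its error. The upstream probe of Fosl2 read 5.78 and 9.19, not well above background, and gives no fold.

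The Jun genes, whose products can bind DNA as Jun-Jun dimers as well as with Fos, lay between -0.0038 and 0.22. Jun gave 55751 at 9 weeks and 42964 at 24 months, a log2 difference of -0.0038 ± 0.20. Junb, which often restrains the activity of Jun, gave 51615 and 40875, a log2 difference of 0.036 ± 0.20. The upstream probe of Junb, 979 bases away, gave 689.6 and 561 and a log2 difference of 0.07 ± 0.20, so both of these Junb probes lay within their error of 0. Another probe under the Junb symbol, 602 bases downstream of the first and assigned to a separate transcript (ENSMUST00000209372), was dim, with 60.3 and 32.1, and differed by -0.53 ± 0.26. Jund, the Jun gene that is expressed at a steady level in most resting cells, gave 37499.6 and 33656, a log2 difference of 0.22 ± 0.20. Its other probe, 31826 and 30075, differed by 0.29 ± 0.20.

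Egr1, Atf3 and Ier2 are induced together with the AP-1 genes. Egr1 encodes a zinc finger factor induced through serum response elements, and its probe gave 24651 at 9 weeks and 14135 at 24 months. The log2 difference was -0.43 ± 0.20, or 1.35-fold lower. Egr1 and Fosb were the 2 genes whose difference exceeded 2 times its error. Atf3, a stress-induced leucine zipper factor that pairs with Jun proteins, gave 23077 and 17926 and a log2 difference of 0.0077 ± 0.20. Ier2, which encodes a small nuclear protein, gave 3790.2 and 2387 and a log2 difference of -0.30 ± 0.20. Another Ier2 probe, 1530 bases downstream and assigned to a cDNA clone (AK032692), gave 289 and 129 and a log2 difference of -0.79 ± 0.21. The downstream probes under the Junb and Ier2 symbols thus had lower differences than the brightest probe of the same symbol.

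Over the 10 genes, the median log2 difference was -0.0028, with 4 above and 6 below 0 and a range from -0.51 to 0.27. The median over all genes measured on both arrays was 0.09. The difference of a gene depended on how bright it was, and the members are bright. For the 4729 genes at or above percentile 90 on both arrays, the median log2 difference was 0.26, with quartiles of 0.05 and 0.47, and for the 464 genes at or above percentile 99 it was 0.45, with quartiles of 0.20 and 0.65. Fos, Jun and Junb, whose differences ranged from -0.0038 to 0.036, lay below the lower quartile of both groups of bright genes. Jund, also at or above percentile 99 on both arrays, was at 0.22 and lay above both lower quartiles. Atf3, at 0.0077, belonged to the percentile 90 group alone and lay below its lower quartile, as did Fosb, Egr1 and Ier2.

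A linear scaling of an array does not change the ranks. Jun moved from rank 158 at 9 weeks to 243 at 24 months, Junb from 169 to 252 and Jund from 267 to 321. Egr1 moved from rank 435 to 795, Atf3 from 465 to 648, Fosb from 531 to 993 and Ier2 from 2342 to 3052. In all, 9 of the 10 genes had a lower place on the aged array, and Fosl1 alone had a higher one, from 18225 to 16754. With 1 array per age, it was not tested whether such shifts exceed the spread between mice.

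**Figure D2:**
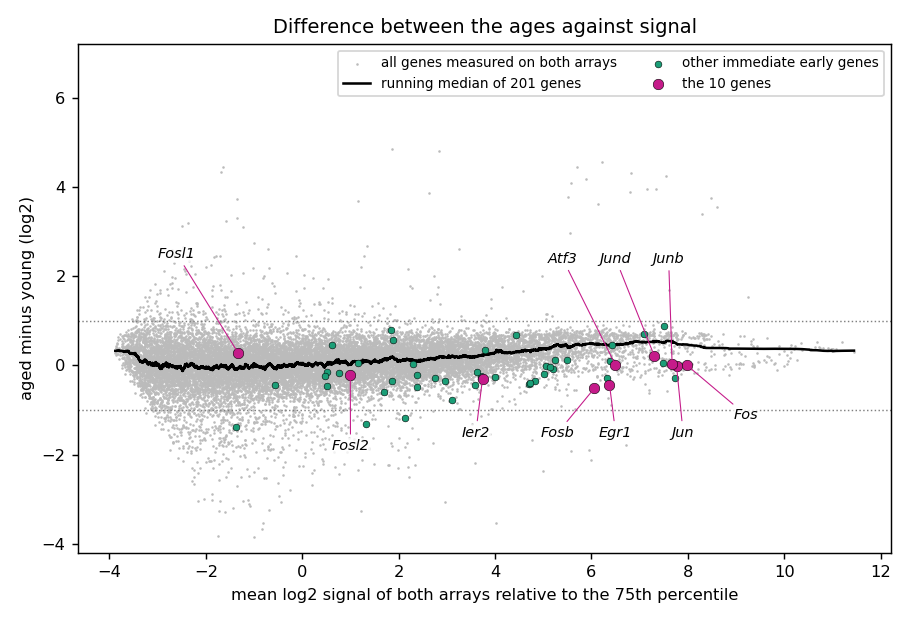
Log2 difference, aged minus young (y axis), against the mean log2 signal of both arrays relative to the 75th percentile (x axis) for the 18693 genes measured on both arrays; the line is a running median over genes and dotted lines mark 2-fold. The running median lies near 0 for most dim genes and above 0 for bright ones, and 9 of the 10 genes lie below it, with Fosl1, a dim gene, above.

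The scaling of the arrays decided the sign for 5 of the 10 genes. Under 8 scalings, among them the median of each array, quantile normalization, a loess curve through the difference against the mean signal, the spike-in controls and the table that the authors normalized, Fosb, Fosl2, Egr1 and Ier2 were below 0 throughout and Fosl1 above 0 throughout. Fos ranged from -0.62 to 0.17, Jun from -0.60 to 0.17, Junb from -0.56 to 0.21, Jund from -0.35 to 0.39 and Atf3 from -0.59 to 0.18, each lowest under loess or quantile normalization and highest with the arrays centred on the median. Fosb ranged from -1.07 to -0.34 and Egr1 from -0.99 to -0.26. Loess and quantile normalization apply shifts that depend on signal. They put 9 of the 10 genes below 0, with medians of -0.58 and -0.54. Whether they removed the dependence on signal for bright genes, without shifting these too far, was not tested. Relative to genes at or above percentile 90, a setting chosen after seeing the data, the median of the 10 genes was -0.26. Quantile normalization alone put 1 gene, Fosb, past 2-fold. Centring on the median put 4 of the 10 below 0.

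**Figure D3:**
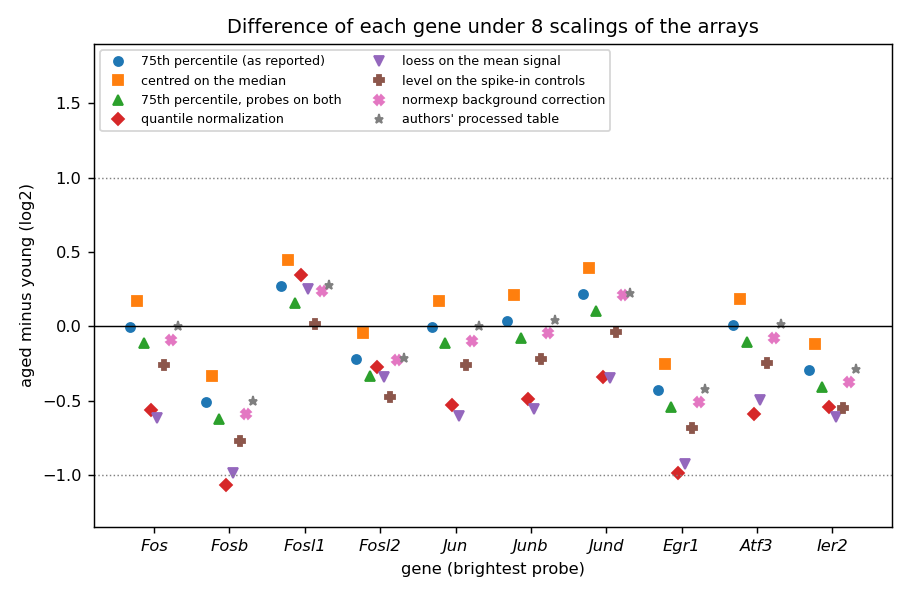
Log2 difference, aged minus young (y axis), of the brightest probe of each of the 10 genes (x axis) under 8 scalings of the arrays, with dotted lines at 2-fold. Fosb and Egr1 stay below 0 under every scaling, from -1.07 to -0.34 and from -0.99 to -0.26, while Fos, Jun, Junb, Jund and Atf3 have points on both sides of 0.

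The promoters of Fos and Jun hold elements through which these genes are known to be induced, and they are shown for the Fos and Jun results above. RefSeq promoter windows (GRCm38.p6) were matched for 7 of the 10 genes, namely Fos, Fosb, Fosl2, Jun, Junb, Jund and Atf3, and the 250 bases before the start of transcription were searched on both strands. Each sequence reads 5′ to 3′ on the strand of the gene, with the matched motif in capitals.
Fos, forward strand, chr12:85473640-85473889: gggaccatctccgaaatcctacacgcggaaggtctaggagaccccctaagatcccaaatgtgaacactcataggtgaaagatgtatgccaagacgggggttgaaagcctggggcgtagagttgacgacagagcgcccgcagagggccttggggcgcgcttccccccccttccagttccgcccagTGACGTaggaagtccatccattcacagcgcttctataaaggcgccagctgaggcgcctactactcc
Jun, reverse strand, chr4:95052223-95052472: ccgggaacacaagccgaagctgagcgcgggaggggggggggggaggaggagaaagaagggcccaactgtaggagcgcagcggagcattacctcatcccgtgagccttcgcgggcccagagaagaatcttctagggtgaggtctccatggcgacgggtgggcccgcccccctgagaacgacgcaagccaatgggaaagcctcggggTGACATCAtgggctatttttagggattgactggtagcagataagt
The capitals mark TGACGT in Fos, the core shared by cAMP response elements, with its first base at -66, and TGACATCA in Jun, known as the proximal AP-1-like element of that promoter, with its first base at -45. TGACGT was found in Fos and, on the reverse strand at -8, in Atf3, and in 6.47% of all 32851 windows. TGACATCA was found in Jun and in 2.93% of all windows. The AP-1 motif TGANTCA was found in none of the 7 windows and in 6.75% of all, and TGACGTCA, which contains TGACGT, in none of the 7 and in 1.55% of all. A match is a description of the letters, and its absence says only that the letters are not in this window.

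Other genes of the immediate early response and of tissue dissociation were followed by a list of 45, of which 42 were measured on both arrays. Of these 42, 14 were above and 28 below 0, with a median log2 difference of -0.21, against 0.09 over all genes. The median of the list stayed between -0.49 and -0.036 over the 8 scalings. At least 2-fold lower were 3 genes (7.14%), against 3.04% of all genes, and none was at least 2-fold higher. Egr3, a relative of Egr1, was 2.61-fold lower, from a log2 level of -0.69 at 9 weeks to -2.07 at 24 months, and its other probe gave -1.21. With normexp background correction Egr3 did not pass 2-fold, at -0.60. Tnfaip3, an inhibitor of NF-kappaB signalling, was 2.49-fold lower, from 1.97 to 0.66. Klf2, a zinc finger factor of endothelium and lymphocytes, was 2.28-fold lower, from 2.73 to 1.54. The 3 with the highest signals stayed under 2-fold. These were the nuclear receptor gene Nr4a1 at -0.28, Cebpd, which encodes a leucine zipper factor of the acute phase response, at 0.88 (1.06 with the arrays centred on the median), and Phlda1 at 0.043, from -0.54 to 0.22 over the scalings. Egr4 and Ptgs2, the inducible cyclooxygenase gene, were above background at 9 weeks alone, which bounds them at 1.49-fold and 1.39-fold lower or more (log2 differences as near to 0 as -0.22 and -0.12 over the scalings), and Npas4 was above background on neither.

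Among 15 other leucine zipper factors, which can pair with Fos or Jun proteins or with each other, all were measured on both arrays, 1 lay past 2-fold on the higher side (1.51% of all genes did) and 3 on the lower side (3.04% of all genes), with a median of -0.051 that lay between -0.31 and 0.12 over the scalings. Atf5, a factor of the amino acid and mitochondrial stress response, was 4-fold higher, from a log2 level of 3.96 at 9 weeks to 5.97 at 24 months, and its other probe gave a difference of 2.01. Atf4, the main factor of the same response, differed by 0.32 and ranged from -0.25 to 0.49 over the scalings. Batf3, which is known for its role in dendritic cells, was 4.89-fold lower and Maf 2.63-fold lower. The other Maf probe, at -0.87, did not pass 2-fold. With normexp Batf3 was at -0.80 and Maf at -0.75, neither past 2-fold. Mafg, a small Maf protein gene of high signal, differed by -0.039 and ranged from -0.33 to 0.14 over the scalings.

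By its brightest probe, no gene of the upstream side of the response passed 2-fold, against 4.55% of all genes, although another Mapk14 probe was at 1.47. Elk3, at -0.81, was at -1.06 at its lowest over the scalings, and its other probe was at 0.099. Of 18 genes for MAPK cascade kinases and for the factors they activate, all measured on both arrays, 11 were above and 7 below 0, and the median was 0.057, from -0.20 to 0.23 over the scalings. The brightest were Elk1, a partner of serum response factor, at 0.031, the ribosomal S6 kinase gene Rps6ka1 at 0.44 and Mapk9, which encodes a Jun kinase, at 0.16. Elk1 and Mapk9 were on both sides of 0 over the scalings, from -0.72 to 0.21 and from -0.10 to 0.33.

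Feedback inhibitors of the same kinases, mostly dual-specificity phosphatases and Sprouty proteins, lay lower. Of 12 measured on both arrays, 10 were below 0, with a median of -0.28, and 1 passed 2-fold on the lower side, as did 3.04% of all genes. This was Dusp4, 2.25-fold lower, with -1.07 by its other probe, and just under 2-fold with normexp, at -0.96, or with the arrays centred on the median. The median of these 12 stayed between -0.54 and -0.11 over the scalings. Dusp2, at -0.88, and Spred1, at -0.93, passed 2-fold at their lowest over the scalings, at -1.14 and -1.19. Dusp10, above background at 9 weeks alone, was at least 2.34-fold lower, though with normexp its difference was -0.21. Limits of this kind reached 2-fold for 25.0% of all genes measured on the young array only. Dusp1, which is induced along with Fos, differed by -0.017, from 6.02 to 6.00, Dusp6 by -0.38 and Dusp5 by 0.22. Dusp1 and Dusp5 were on both sides of 0 over the scalings, from -0.58 to 0.16 and from -0.061 to 0.39. Spry4 was not above background on either array.

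Of 16 genes known as AP-1 targets, 9 were measured on both arrays, 7 of them below 0, with a median of -0.28, and 1 was past 2-fold on the lower side, against 3.04% of all genes. Plaur, the urokinase receptor gene, was 2.07-fold lower, at -1.05, and ranged from -1.31 to -0.88 over the scalings, under 2-fold with the arrays centred on the median and, at -0.93, with normexp. The stromelysin genes Mmp3 and Mmp10 were above background at 24 months alone and thereby at least 2.17-fold and 2.14-fold higher, and a bound of 2-fold or more held for 52.6% of all genes measured at 24 months alone. With normexp their differences were 0.55 and 0.71. The cyclin D1 gene Ccnd1 differed by -0.62, the heme oxygenase gene Hmox1 by 0.31 and Cd44 by -0.28. Areg, Ereg and Mmp13 were not above background on either array.

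Heat shock genes, which are also known to be induced when tissue is dissociated, lay mostly above 0 relative to the 75th percentile. All 13 were measured on both arrays, 11 were above 0, and the median was 0.38, with a range from 0.066 to 0.56 over the scalings. Hspa1a, an inducible HSP70 gene, was 2.17-fold higher, from a log2 level of 4.62 to 5.74, but not past 2-fold with quantile normalization, at 0.66, with loess, at 0.70, or on the spike-in controls, at 0.86. Its near-identical copy Hspa1b differed by 0.80, and the probes may share signal. Hspa8 differed by 0.62, the endoplasmic reticulum chaperone gene Hspa5 by 0.38 and Hsp90ab1 by 0.25. Hspa5 and Hsp90ab1 turned to -0.21 and -0.33 with quantile normalization and were also below 0 with loess. Beside the median of 0.38, that of all genes at or above percentile 90 on both arrays was 0.26.

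**Figure D4:**
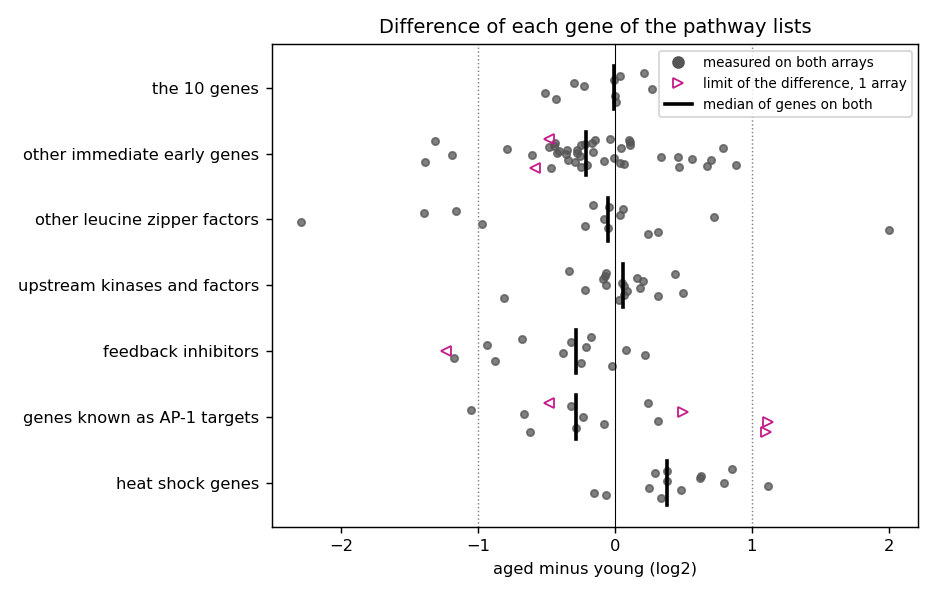
Log2 difference, aged minus young (x axis), of each gene of the lists (y axis); filled points are genes measured on both arrays, open triangles are limits for genes above background on 1 array, pointing away from 0, black bars are medians and dotted lines mark 2-fold. The medians lie at -0.0028 for the 10 genes, -0.21 for the other immediate early genes, -0.28 for the feedback inhibitors and the AP-1 targets, and 0.38 for the heat shock genes.

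Immediate early genes can be induced in most cell types of the gland, so the markers of these were read on the same arrays. In bulk RNA, fewer cells of a type and less RNA per cell cannot be told apart. Epithelial markers were present, with 7 of 8 measured on both arrays, none past 2-fold, and a summed signal of 507 at 9 weeks and 566 at 24 months, in multiples of the 75th percentile. Krt18 was the brightest of them, Epcam itself differed by 0.20, and Krt19 was above background on the young array only, at least 1.85-fold lower, with a log2 difference as near to 0 as -0.0055 over the scalings. Acinar markers, led by Dcpp2, summed to 7318 and 9471, with 1 of 8, Smgc at -1.79, past 2-fold on the lower side (3.04% of all genes), and Muc19 at -0.89, which reached -1.47 over the scalings. The median of the acinar list, 0.37, ranged from -0.46 to 0.55 over the scalings. Those of the epithelial, duct, and basal and myoepithelial lists were likewise on both sides of 0. Duct markers, led by Klk1, summed to 994 and 925, with Slc5a5 above background at neither age. Basal and myoepithelial markers, led by Trp63, summed to 67.5 and 75.6, and 2 of 7 passed 2-fold on the lower side (3.04% of all genes did), the smooth muscle genes Cnn1, at -2.14, and Myh11, at -1.83. Another Myh11 probe was at 0.12, and over the 8 scalings Myh11 reached from -2.08 to -0.49. The other 5 lay between -0.080 for Acta2, a smooth muscle gene with another probe at -1.96, and 0.29 for Trp63.

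Macrophage and dendritic cell markers were lower on the aged array. All 10 were measured on both arrays and below 0, 7 were at least 2-fold lower, against 3.04% of all genes, the median was -1.14 and it ranged from -1.40 to -0.97 over the scalings. Their summed signal went from 199 to 105, a ratio of 0.528. The lysozyme gene Lyz2 was at -1.91, the mannose receptor gene Mrc1 at -1.88 and Itgax at -1.64, with another Itgax probe at 0.42, while Itgam, the brightest by mean log2 signal, was at -0.052, and none of the 10 was at background. Fibroblast markers, led by Dcn, summed to 19.1 and 9.30, with 3 of 6 at least 2-fold lower, against the same 3.04%, and a median of -1.21. That median ranged from -1.47 to -0.90 over the scalings. Dcn, at -0.98, and Lum, at -0.91, passed 2-fold at their lowest, at -1.26 and -1.17. Col1a1, at -1.81, did not pass at its nearest to 0, at -0.78. Pdgfra, on the young array only, was at least 2.45-fold lower, with a difference as near to 0 as -0.19 over the scalings. Endothelial markers, led by Kdr, summed to 3.96 and 2.78. The summed signal of the 10 immediate early genes, 1102 at 9 weeks and 1079 at 24 months, had a ratio of 0.979. The part of macrophages and fibroblasts in the differences of the 10 genes and of the other lists was not tested.

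T cell markers, led by Cd4, summed to 10.9 and 13.2. The median of the 5 measured on both arrays was 0.56, while Cd3g, above background at 9 weeks alone, was at least 2.06-fold lower and Cd8a was above background on neither array. B cell markers, led by Cr2, summed to 1.95 and 1.57, with Cd79b at -2.14 and Cd79a above background on neither array. Over the scalings the difference of Cd3g came as near to 0 as -0.25. Plasma cell markers summed to 137 and 197, almost all of it Xbp1, which secretory epithelium also expresses, while Jchain was at -1.78 and Tnfrsf17 and Mzb1 were above background on neither array. Neutrophil markers summed to 82.5 and 73.2, almost all of it Csf3r, which differed by -0.21. Among them, S100a8 and S100a9 were above background on the aged array only, at least 3.97-fold and 14-fold higher, with log2 differences as near to 0 as 1.15 and 1.80 over the scalings, and Mpo and Retnlg were above background on neither. Of the mast cell markers Tpsb2 alone was measured, at 0.572 and 0.277, and the defining genes Cpa3, Mcpt4, Cma1 and Fcer1a were above background on neither array. Red blood cell markers, led by Hba-a1, summed to 7.96 and 9.64.

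**Figure D5:**
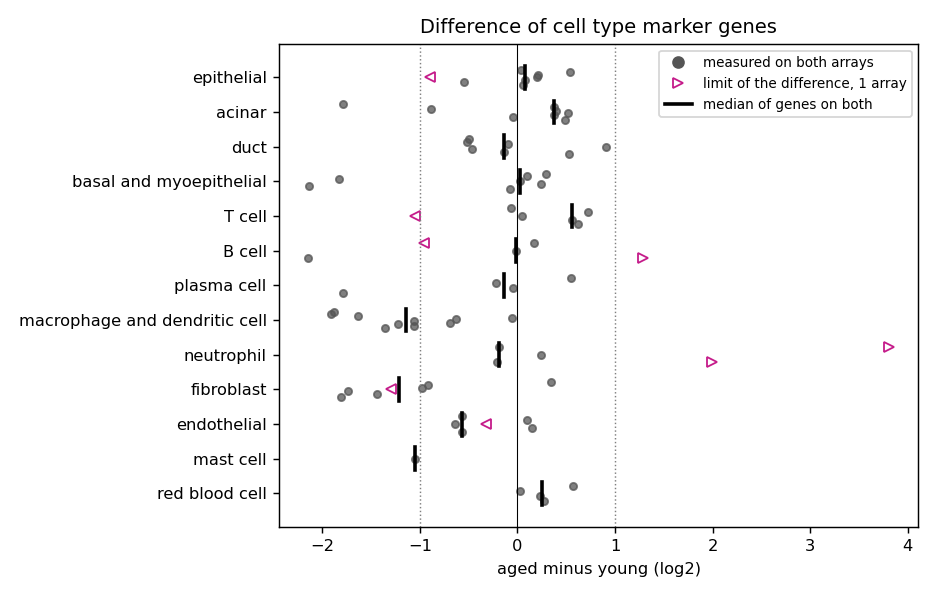
Log2 difference, aged minus young (x axis), of each marker gene of 13 cell type lists (y axis); filled points are genes measured on both arrays, open triangles are limits for genes above background on 1 array, black bars are medians and dotted lines mark 2-fold. The macrophage and dendritic cell median of -1.14 and the fibroblast median of -1.21 lie left of the line at -1, and the medians of the epithelial, acinar, duct, and basal and myoepithelial lists lie within 2-fold.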

How the data were processed

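Total RNA of EpCAM-positive submandibular gland cells was measured on 1-colour Agilent 8x60K arrays, 1 per age. Per the file headers, the deposited intensity values (processed signal) were background-subtracted by Agilent Feature Extraction 12.0.3.1. The deposited value table of the authors holds a linear ratio, the signal divided by a constant of each array (229 young, 176 aged), and served as an alternative. Its values equalled the scanner signals over that constant to within 0.0041%, so its scale is linear and it is not centred by gene. Its column medians were 0.0922 and 0.0817. No saturated spot was found.

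Control spots and outlier spots (90 young, 93 aged) were left out, repeat spots were averaged, and the log2 signal minus the 75th percentile of each array was compared in Python 3.11.15, with R 4.3.3 and limma 3.58.1 for quantile, loess (span 0.7, 3 iterations) and normexp (offset 50). A gene was read by its brightest probe among those well above background on at least 1 array (21284 genes). That flag held for 53.4% of probes at 9 weeks and 48.5% at 24 months. Where 1 array alone was above background, the fold is a lower limit against the higher of the dim probe's own signal and the lowest signal well above background (14.1 young, 14.3 aged). The number of arrays, 1 per age, limits the precision, and no p-value is given. The software error covers the spot, not the animal. Over 285 probes with several spots, the median SD of the difference was 0.033. All columns of per-sample values were used.

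The 10 genes and all lists were chosen with earlier results of these data known. The text names all 10, the up to 4 genes with the largest increase and decrease past 2-fold and the 3 brightest of each pathway list, genes with limits past 2-fold, and cell type markers by list. Egr4, Ptgs2, Dusp2, Spred1, Hspa1b, Mapk14, Elk3 and single markers were named after their values were seen. Of the 17 probes, 14 carry an accession that RefSeq pairs with the same symbol and 3 carry none. Scripts were tested on simulated data. Alternatives changed the scaling, background correction, filter, probe choice and outlier spots. Some genes that the rule would name are not reported here.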

Additional observations from a re-analysis of the deposited data

How the results depend on the processing

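With 1 array per age, neither biological spread nor an effect of the mouse source can be measured. No paired analysis was possible because each age has 1 array and the labels carry no replicate numbers. The count of genes at least 2-fold lower among the 10 was 1, Fosb, with quantile normalization and 0 under the other settings, and the count at least 2-fold higher was 0 under all settings. The median difference of the 10 genes was 0.17 with arrays centred on the median, -0.11 with the 75th percentile over probes measured on both arrays, -0.54 with quantile normalization, -0.58 with loess, -0.26 on the spike-in controls, -0.095 with normexp, -0.073 as a mean over the probes of a gene, and -0.26 relative to genes at or above percentile 90, a setting chosen after seeing the data. Ranked among probes well above background, the median percentile was 98.5 young and 97.4 aged. Over all genes, the count at least 2-fold higher, 283, became 462 with median centring, 150 on the spike-ins, 107 with normexp and 1680 without a filter on dim probes, and the count lower, 568, became 928 on the spike-ins, 209 with normexp and 2398 without a filter. The share of higher calls, 33.3%, became 52.7% with median centring and 13.9% on the spike-ins. Median centring moved the median of all genes by 0.17, the 75th percentile over probes on both arrays by -0.11, loess by -0.14 and the spike-ins by -0.26. Another 40 of these counts and medians stayed within 1.5 times the count or within 0.033, the spread between repeat spots. Of the values for single genes and lists, 282 moved by more than that spread and 221 did not, and none past 2-fold changed sign. The cause of the dependence on signal was not tested.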
